A study of Mus musculus with 16 samples.

Results

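Actb, Gapdh, Eef1a1 and Hspa8 are 4 mouse genes that nearly all cells transcribe at a high level, and their chromatin was examined as a reference for highly transcribed genes. Each gene was taken as a fixed interval of the mm9 genome: chr5:143662000-143672000 for Actb, chr6:125109000-125119000 for Gapdh, chr9:78323000-78333000 for Eef1a1 and chr9:40605000-40617000 for Hspa8. Together the intervals held 232 of the 1269475 windows of 50 bp listed in at least 1 of 9 ChIP libraries. The rule that names the genes and intervals used no measured value, though it was set with earlier results of these data known.

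The libraries came from neural progenitor cells derived from V6.5 mouse embryonic stem cells, a single cell line, by way of embryoid bodies for 4 days and plating in ITSF medium; the cells were crosslinked with 1% formaldehyde. RNA polymerase II (Pol II), the Mediator subunit Med26 and the Mediator kinase Cdk8 were each mapped in cells transfected with siRNA against Cbx3 for 72 hours and in cells transfected for as long with a control siRNA against luciferase. Pol II was also mapped in untreated cells, as was Cbx3 in 2 libraries called sets 1 and 2. Every other group had 1 library, so differences between groups rest on single libraries and were not tested for significance. The labelled cell type was not checked against marker genes, because no gene positions of mm9 were used here, and the level of Cbx3 after its siRNA was not analysed here.

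As background, Pol II gathers just downstream of the start of most active genes, where it pauses before elongation, and again past the polyadenylation site, where it slows before termination. Mediator bridges transcription factors and Pol II at promoters and enhancers; Med26 is linked to its active, Pol II-associated form and Cdk8 belongs to a kinase module that binds it reversibly. Cbx3 (HP1 gamma) binds methylated histone H3 and is found both in heterochromatin and along transcribed genes. Actb encodes beta-actin of the cytoskeleton, Gapdh a glycolytic enzyme, Eef1a1 the elongation factor that brings aminoacyl-tRNA to the ribosome, and Hspa8 the constitutive heat shock cognate chaperone Hsc70. In the RefSeq gene order of the GRCm38.p6 assembly, the neighbours are Gm38733 and Fscn1 for Actb, Iffo1 and Ncapd2 for Gapdh, Mto1 and LOC115487230 for Eef1a1, and Clmp and Snord14c for Hspa8. Windows toward the ends of an interval can belong to such a neighbour. Snord14c is a small nucleolar RNA gene hosted by Hspa8.

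The promoter sequences below are shown as the annotated starts of genes whose Pol II maxima are described after them. RefSeq promoter sequences of GRCm38.p6, 250 bases before to 50 bases after the annotated start, were found for Gapdh (chr6:125165724-125166023, minus strand) and Eef1a1 (chr9:78481675-78481974, minus strand), and are printed 5′ to 3′ with matches to searched motifs in capitals. The TATA box was searched as TATAA, the CCAAT box as CCAAT and the GC box as GGGCGG, each on both strands, and no matches overlapped.
Gapdh promoter: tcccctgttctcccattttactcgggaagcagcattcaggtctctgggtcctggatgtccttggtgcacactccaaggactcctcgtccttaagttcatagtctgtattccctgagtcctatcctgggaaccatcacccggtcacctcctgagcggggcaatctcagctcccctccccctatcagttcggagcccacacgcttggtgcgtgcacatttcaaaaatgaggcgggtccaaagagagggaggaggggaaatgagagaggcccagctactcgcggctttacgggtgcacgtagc
Eef1a1 promoter: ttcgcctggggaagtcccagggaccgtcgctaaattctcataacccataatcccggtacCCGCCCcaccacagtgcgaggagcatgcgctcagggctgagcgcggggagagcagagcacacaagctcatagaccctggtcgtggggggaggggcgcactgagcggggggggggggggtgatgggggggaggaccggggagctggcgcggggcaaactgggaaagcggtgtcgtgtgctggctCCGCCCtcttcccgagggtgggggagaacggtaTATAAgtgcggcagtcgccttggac
The Eef1a1 sequence held TATAA once, beginning at base 26 counted from and including the annotated start. It held GGGCGG on the opposite strand, beginning 191 and 8 bases before that start. The Gapdh sequence held none of the 3. Among 32851 RefSeq promoters of 300 bases, 24.9% held the TATA box letters, 37.4% the CCAAT box letters and 35.7% the GC box letters. Where the Pol II windows lie within these sequences was not determined, since the windows are on another build.

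The authors' files give a signal for each listed window, here called signal per 50 bp window, and leave other windows out. Lists held 101091 windows for Pol II after Cbx3 siRNA, 116001 after control siRNA and 34855 in untreated cells, and from 2721 to 923942 in the other libraries. The values were whole multiples of a step, and 50 steps (1.1 signal units in both siRNA Pol II libraries and 1.05 in untreated Pol II) were read as 1 sequencing read covering a window. That reading was inferred from the values and is weakest for Pol II, where 2.59 to 3.39% of values were multiples of 50 steps against 2% by chance. Intervals given below rest on it and cover counting error only. A window missing from a list is not one without signal. At Gapdh after Cbx3 siRNA a listed window with a signal of 31.3 bordered an unlisted one, against a lowest listed value of 6.01 in that library, so the lists depend on more than the signal.

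Pol II was listed at all 4 genes in all 3 Pol II libraries, and each time with a sharp maximum, beside which Eef1a1 had a lower upstream peak. Actb, Gapdh and Eef1a1 are transcribed from the minus strand and Hspa8 from the plus strand. Under control siRNA the highest windows began at position 143668351 for Actb, 125115551 for Gapdh, 78329401 for Eef1a1 and 40609401 for Hspa8. In the Cbx3 siRNA and untreated libraries the highest window was the same one or its direct neighbour, at most 50 bp away.

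**Figure D1:**
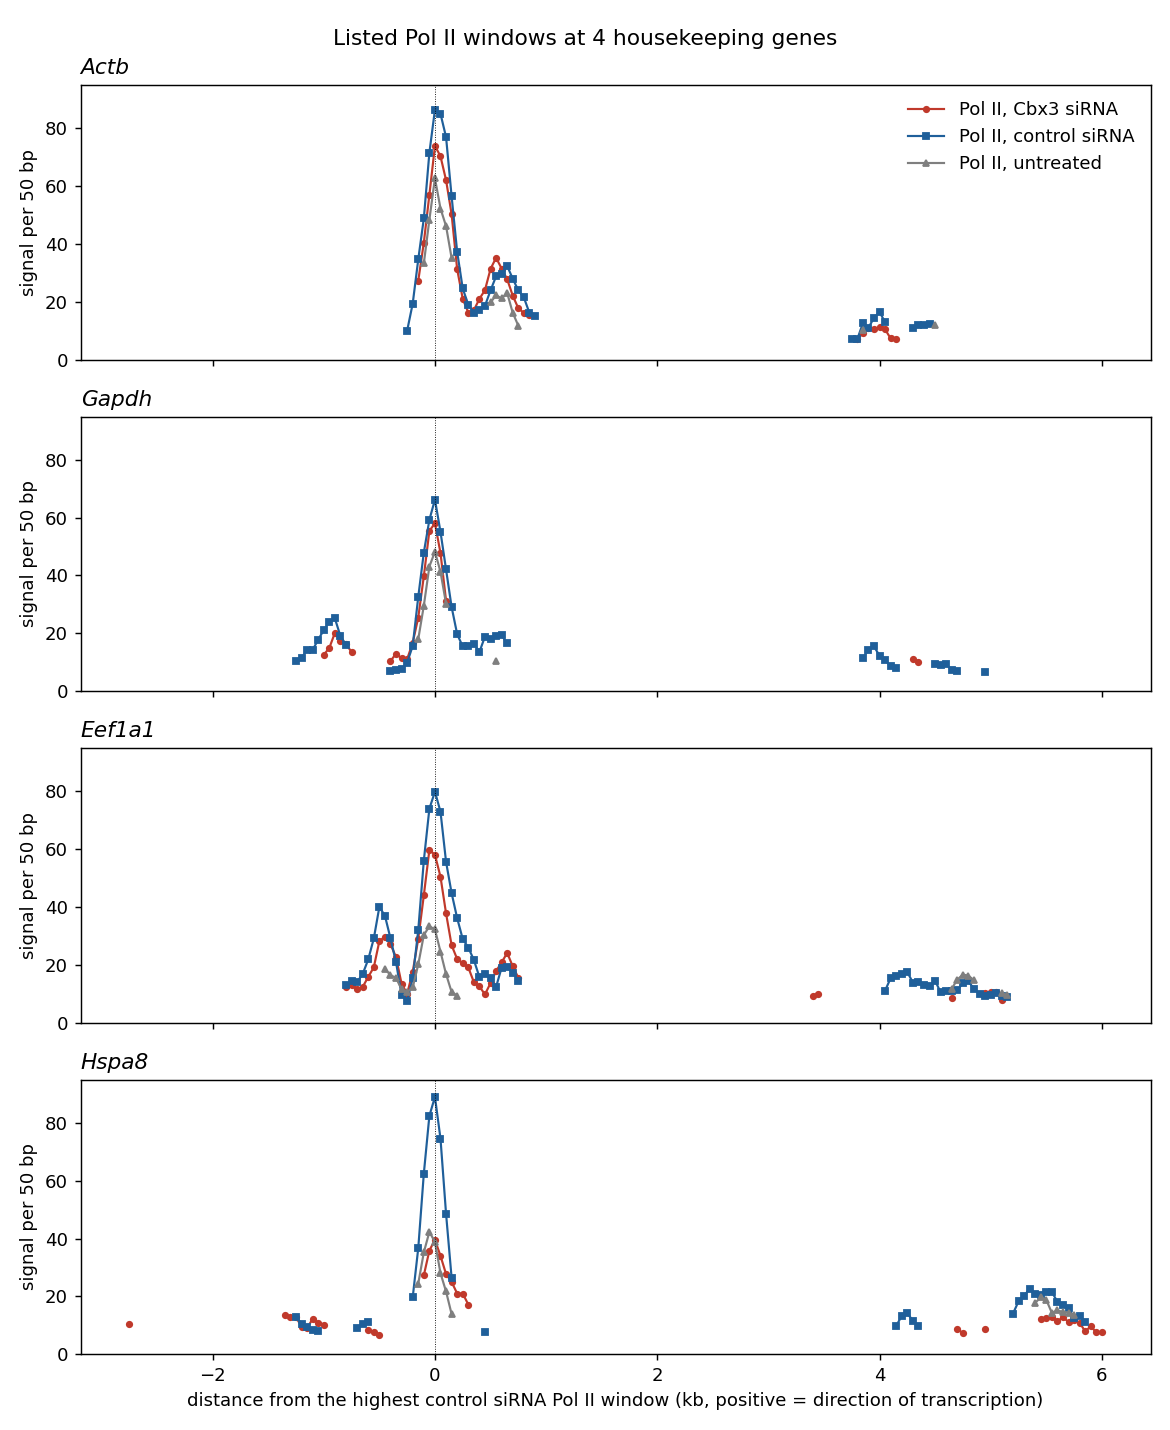
Signal of listed 50 bp Pol II windows (y axis) against distance in kb from the highest control siRNA window, positive in the direction of transcription (x axis), for Cbx3 siRNA, control siRNA and untreated cells; gaps are unlisted windows. All 4 genes have a maximum at 0 or within 50 bp of it. A second group of low windows lies more than 3 kb downstream, except at Gapdh in untreated cells. At Hspa8 the control maximum of 89.1 stands far above the 39.6 of Cbx3 siRNA and the 42.3 of untreated cells.

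Actb had a highest Pol II signal of 73.9 after Cbx3 siRNA, 86.4 after control siRNA and 62.7 in untreated cells. These windows ranked 48th of 16426, 60th of 16073 and 66th of 8183 merged regions of their libraries. Gapdh had 58.0 after Cbx3 siRNA, 66.3 after control siRNA and 48.2 in untreated cells. Eef1a1 had 59.8 after Cbx3 siRNA, 79.9 after control siRNA and 33.3 in untreated cells. Hspa8 had 39.6 after Cbx3 siRNA, 89.1 after control siRNA and 42.3 in untreated cells. All 4 genes were thus highest under control siRNA as deposited, though not Actb and Gapdh once the shift of all shared windows was subtracted (0.06 and 0.10 for Cbx3 siRNA minus control siRNA, -0.14 and -0.15 for control siRNA minus untreated, log2). The lowest of these 12 maxima, Eef1a1 in untreated cells, still lay above 94.8% of the windows of its library. Ranks among merged regions were lower than those of Actb in most cases. After Cbx3 siRNA, after control siRNA and in untreated cells they were 131, 193 and 141 at Gapdh and 115, 85 and 560 at Eef1a1. At Hspa8 they were 764, 52 and 219 in the same order.

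The order of the genes differed between the libraries. After Cbx3 siRNA it ran Actb, Eef1a1, Gapdh and Hspa8, and Hspa8 (95% exact Poisson interval 27.7 to 54.8) lay below Actb (57.1 to 93.6), while neighbours in the order had overlapping intervals. Under control siRNA it ran Hspa8, Actb, Eef1a1 and Gapdh, and the interval of the highest (70.8 to 111) overlapped that of the lowest (50.4 to 85.0). In untreated cells it ran Actb, Gapdh, Hspa8 and Eef1a1, and Eef1a1 (23.1 to 47.6) lay below Actb (48.2 to 81.3), with all neighbours overlapping. Hspa8 was therefore first of the 4 genes under control siRNA and last after Cbx3 siRNA.

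**Figure D2:**
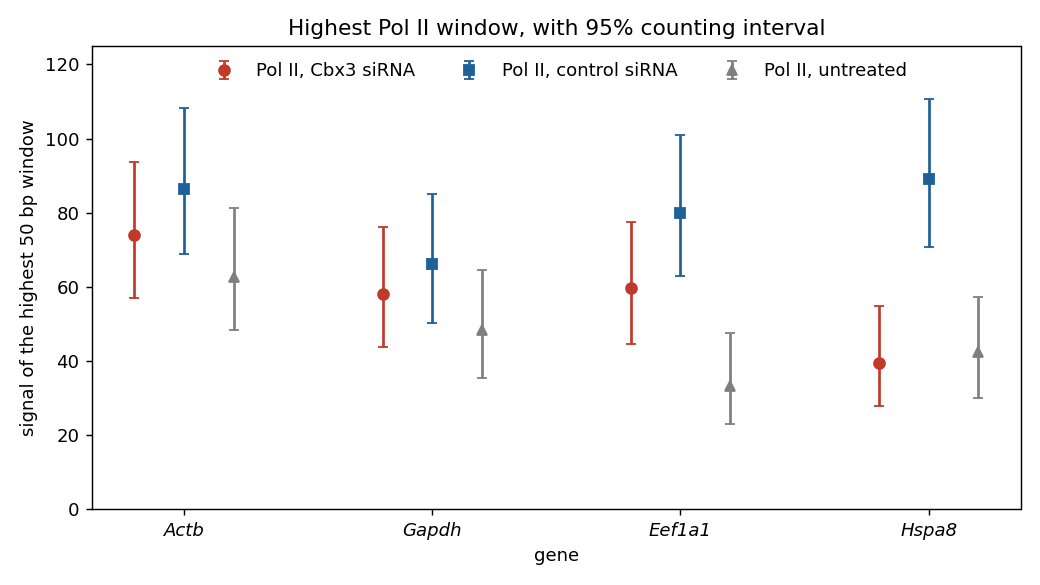
Signal of the highest 50 bp Pol II window (y axis) for each gene (x axis) in the Cbx3 siRNA, control siRNA and untreated libraries, 1 library each, with 95% exact Poisson intervals that cover counting error only. The intervals of Cbx3 siRNA and control siRNA overlap at Actb, Gapdh and Eef1a1, and do not at Hspa8.

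Between the siRNA arms, the highest Pol II window differed most at Hspa8. Its log2 difference, Cbx3 siRNA minus control siRNA, was -1.17 (95% exact binomial interval -1.78 to -0.59), a ratio of 0.444. The log2 difference was -0.22 at Actb (interval -0.73 to 0.25), -0.19 at Gapdh (-0.74 to 0.38) and -0.42 at Eef1a1 (-0.97 to 0.09). The Hspa8 interval excludes 0 and the other 3 include it, and the interval of Hspa8 also excludes the median of -0.29 over the 74288 windows listed in both arms. With that median subtracted the differences were 0.06 at Actb, 0.10 at Gapdh, -0.13 at Eef1a1 and -0.88 at Hspa8. By summed listed signal the order was another, with Gapdh lowest at -0.97, then Hspa8 at -0.66, Eef1a1 at -0.57 and Actb at -0.31. Such sums also move with the number of windows listed.

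Single windows at Hspa8 give the values behind this. At position 40609351 the signal was 35.9 after Cbx3 siRNA, 82.5 after control siRNA and 42.3 in untreated cells. At 40609401 it was 39.6 after Cbx3 siRNA, 89.1 after control siRNA and 38.8 in untreated cells, and at 40609451 it was 34.0, 74.6 and 28.0 in the same order of libraries. As deposited, the Cbx3 siRNA and untreated values thus lay near each other in these windows, with control siRNA far above both. The libraries are also shifted as a whole. With the shift of all shared windows subtracted, the log2 difference of the highest window was -0.88 for Cbx3 siRNA minus control siRNA. For control siRNA minus untreated it was 0.47, so the 2 differences were then of unequal size. With 1 library an arm, a high control library and a low Cbx3 siRNA library cannot be told apart at Hspa8.

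Highly occupied regions as a whole gave the scale for these differences. In the control siRNA library, 195 merged regions had a highest window at least as high as the lowest of the 4 genes (66.3), and 193 of them had that window in both arms. Their median log2 difference was -0.43, with 5th and 95th percentiles of -0.93 and -0.13, and 29.0% were lower past 1.5-fold after Cbx3 siRNA. Of the 4 genes, 1 was lower past 1.5-fold in that window, Hspa8, and none was higher (against 0.0% of the regions). Listed Pol II was present in 99.5% of the 195 regions after Cbx3 siRNA and in 99.0% in untreated cells, and at all 4 genes in both. Of the 193 regions, 3 had a lower log2 difference than Hspa8 (1.55%). At Actb, 84.5% of the regions had a lower value than the gene's -0.22, at Gapdh 88.1% lay below its -0.19, and at Eef1a1 45.1% lay below the -0.46 of its control window. Since regions were ranked by the control library, high control values are favoured in this set.

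Over all Pol II windows of the 4 intervals, 101 were listed in both arms, and 16 of them were lower past 1.5-fold after Cbx3 siRNA (15.8%, against 24.2% of all windows listed in both arms). Hspa8 supplied 9 of the 16, Eef1a1 5, Gapdh 2 and Actb none. One window, at Gapdh, was higher past 1.5-fold (0.99% of the 101, against 2.91% of all). The median log2 difference over the 101 windows was -0.27 (interval of the median -0.32 to -0.16), near the -0.29 of all windows. By gene it was -0.22 over 27 windows of Actb, -0.16 over 16 of Gapdh, -0.28 over 37 of Eef1a1 and -0.50 over 21 of Hspa8. Relative to the median of all windows, Actb, Gapdh and Eef1a1 changed sign, to 0.06, 0.13 and 0.01, and Hspa8 stayed at -0.22.

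**Figure D3:**
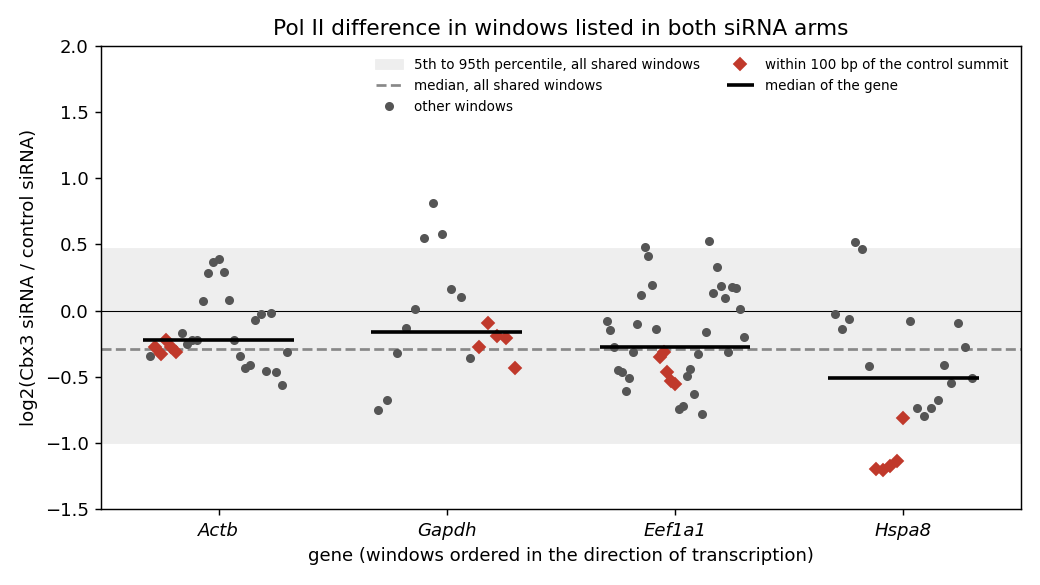
Log2 ratio of Pol II signal, Cbx3 siRNA over control siRNA (y axis), in each 50 bp window listed in both arms, by gene (x axis), with the median of each gene as a bar. The dashed line is the median of all 74288 shared windows (-0.29) and the band runs from their 5th to their 95th percentile; at Hspa8, 4 of the 5 windows within 100 bp of the control maximum lie below the band.

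Of the 101 windows, 26 were higher after Cbx3 siRNA (25.7%, against 25.8% of all shared windows that were not lower), a share near that of the whole list. Their places are given as a description. At Actb the 6 higher windows of 27 formed 1 run from 350 to 600 bp downstream of the maximum, where a shoulder peaked at 35.2 (550 bp downstream) after Cbx3 siRNA, at 32.3 (650 bp) after control siRNA and at 23.0 (650 bp) in untreated cells. At Eef1a1 all 5 windows listed in both arms 500 to 2500 bp downstream were higher, with a shoulder of 24.1 after Cbx3 siRNA and 19.2 after control siRNA, both at 650 bp; of its other higher windows, 4 lay 200 to 350 bp upstream and 3 lay 4950 to 5050 bp downstream. At Gapdh a run of 5 higher windows lay 200 to 400 bp upstream of the maximum, with 1 more at 800 bp. At Hspa8 the only 2 higher windows lay 1050 to 1100 bp upstream. Neighbouring windows share reads, and the runs were noticed after their values were seen.

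Pol II was also listed upstream of the maxima at 3 genes. Eef1a1 had a separate upstream peak of 29.7 at position 78329851 after Cbx3 siRNA, of 40.0 at 78329901 after control siRNA and of 18.5 at 78329851 in untreated cells. Gapdh had windows of up to 20.2 after Cbx3 siRNA and 25.1 after control siRNA, 900 bp upstream of its maximum and toward its neighbour Ncapd2, with none listed there in untreated cells. Hspa8 had low upstream windows of up to 13.6 after Cbx3 siRNA and 13.0 after control siRNA. Actb had none more than 500 bp upstream in any of the 3 libraries.

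Most of the listed Pol II signal lay near the maximum, except at Hspa8 after Cbx3 siRNA. Hspa8 had the lowest share in each library, in an interval of 12 kb against 10 kb for the other genes. Windows within 500 bp held 69.4% of the summed listed signal of the Actb interval after Cbx3 siRNA, 66.6% after control siRNA and 71.9% in untreated cells. At Gapdh the shares were 73.4%, 58.2% and 95.3% in the same order, and at Eef1a1 69.4%, 60.7% and 73.6%. At Hspa8 they were 48.5% after Cbx3 siRNA, 53.7% after control siRNA and 61.4% in untreated cells. A sum over listed windows moves with how many were listed, which differed: Gapdh had 19 windows after Cbx3 siRNA, 45 after control siRNA and 7 in untreated cells, while Hspa8 had 36, 36 and 15.

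A second group of Pol II windows lay far downstream. Under control siRNA it began 3750 bp from the maximum at Actb, 3850 bp at Gapdh, 4050 bp at Eef1a1 and 4150 bp at Hspa8. Its highest window at Actb had a signal of 11.2 after Cbx3 siRNA, 16.4 after control siRNA and 11.8 in untreated cells. At Gapdh it had 11.1 after Cbx3 siRNA and 15.5 after control siRNA, and none was listed in untreated cells. At Eef1a1 it had 10.6 after Cbx3 siRNA, 17.5 after control siRNA and 16.6 in untreated cells. At Hspa8, where this group held the largest share of the listed signal in each library (29.1% after Cbx3 siRNA, 36.7% after control siRNA, 38.6% in untreated cells), it had 13.0 after Cbx3 siRNA, 22.6 after control siRNA and 19.7 in untreated cells. The highest downstream signal was thus lower after Cbx3 siRNA than after control siRNA at all 4 genes. It lay in the same window in both arms at Actb, but at different positions at Gapdh, Eef1a1 and Hspa8. In windows listed in both arms the median log2 difference there was -0.38 at Actb (6 of 6 lower), 0.01 at Eef1a1 (2 of 5 lower) and -0.54 at Hspa8 (9 of 9 lower), and Gapdh had no such window. Of all shared windows 74.2% were lower. The number of downstream windows listed after Cbx3 siRNA and after control siRNA was 8 against 11 at Actb, 2 against 13 at Gapdh, 7 against 23 at Eef1a1 and 15 against 19 at Hspa8, where the whole lists held 101091 against 116001.

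Between the maximum and the downstream group, no Pol II window was listed in any of the 3 libraries over 2800 bp at Actb, 3150 bp at Gapdh, 2600 bp at Eef1a1 and 3650 bp at Hspa8. Cbx3 set 1 listed 4, 2, 3 and 2 windows in these stretches in the same order of genes, mostly toward their ends, and most of each stretch held no listed window of any library. As background, all 4 genes have processed pseudogene copies elsewhere in the genome. The handling of reads that match several places is not given in the labels, and whether it bears on the unlisted stretches was not tested.

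Of the 171 control siRNA Pol II windows in the 4 intervals, 70 were not listed after Cbx3 siRNA (40.9%, against 36.0% of all control windows). The share was 22.9% at Actb (8 of 35), 64.4% at Gapdh (29 of 45), 32.7% at Eef1a1 (18 of 55) and 41.7% at Hspa8 (15 of 36). In return 22 of the 123 windows after Cbx3 siRNA were listed in that arm alone (17.9%, against 26.5% of all), of which 15 were of Hspa8 (41.7% of its 36), 3 of Gapdh, 2 of Actb and 2 of Eef1a1. Gapdh thus had the largest share of control windows unlisted after Cbx3 siRNA, with a ratio of 0.876 between its maxima, and Hspa8 had as many listed windows in both arms, with a ratio of 0.444.

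Control siRNA against untreated cells gave the pair of Pol II libraries without a knockdown. Over 56 windows listed in both, control siRNA was higher by a median of 0.52 on the log2 scale (interval 0.42 to 0.70), against 0.60 over all 32821 such windows, and 26 were higher past 1.5-fold (46.4%, against 51.5% of all). None of the 56 was lower past 1.5-fold (against 1.46% of all). Of 57 untreated windows, 1 was not listed after control siRNA (1.75%, against 5.84% of all). The highest windows differed by 0.46 at Actb (interval -0.04 to 0.97), 0.46 at Gapdh (-0.13 to 1.03), 1.26 at Eef1a1 (0.63 to 1.90) and 1.07 at Hspa8 (0.52 to 1.66). With the 0.60 of all windows subtracted these were -0.14, -0.15, 0.66 and 0.47 in the same order. The intervals of Eef1a1 and Hspa8 exclude 0 and those of Actb and Gapdh include it, while the 0.60 of all windows lies outside the interval of Eef1a1 alone. In the control maximum's own window, 2 of the 4 genes were higher past 1.5-fold (Eef1a1 and Hspa8), against 64.2% of the 193 highly occupied regions listed in both. The signal of 1 read was close to equal in these libraries (1.1 and 1.05), but their depth is unknown, and both comparisons share the control siRNA library.

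Med26 was sparse at these genes. After Cbx3 siRNA no Med26 window was listed at any of the 4. After control siRNA Actb had 4 adjoining windows of 11.8, 13.8, 14.1 and 12.5, all within 150 bp of the Pol II maximum, and Eef1a1 had 1 window of 10.8, 100 bp downstream of it, while Gapdh and Hspa8 had none. The highest Actb window was equivalent to 14.7 reads and lay above 84.0% of control Med26 windows. That of Eef1a1 was equivalent to 11.2 reads and lay above 61.2%. All 5 control windows were thus not listed after Cbx3 siRNA, as were 93.9% of all control Med26 windows, so this count is close to that of the whole list. Among the 195 highly occupied control Pol II regions, 20.5% held Med26 after Cbx3 siRNA and 69.2% after control siRNA, where the 4 genes gave none and 2. With Pol II signals of 66.3 and 89.1 under control siRNA, Gapdh and Hspa8 were among the regions of that level with no listed Med26.

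Cdk8 was listed at Eef1a1 alone of the 4 genes, and there after Cbx3 siRNA alone. Its 5 adjoining windows had signals of 6.49 to 8.72, with the highest 200 bp upstream of the Pol II maximum and equivalent to 6.18 reads. It lay above 52.6% of the Cdk8 windows of that library, and no window was listed at this place after control siRNA. Of all Cdk8 windows after Cbx3 siRNA, 77.5% were listed in that arm alone. These windows ran from the upstream flank of the Pol II maximum into the dip between it and the upstream Pol II peak of Eef1a1. At position 78329501, the first of them, Pol II was 44.0 after Cbx3 siRNA, 56.1 after control siRNA and 30.3 in untreated cells. In the dip the Pol II signal was lowest at position 78329651, at 10.1 after Cbx3 siRNA, 7.55 after control siRNA and 10.6 in untreated cells. Of the 195 highly occupied regions, 18.5% held Cdk8 after Cbx3 siRNA and 15.9% after control siRNA, where the 4 genes gave 1 and none. At Eef1a1 Med26 was therefore listed in control siRNA cells and Cdk8 in Cbx3 siRNA cells, on the equivalent of 11.2 and 6.18 reads, and a difference between the factors was not tested.

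**Figure D4:**
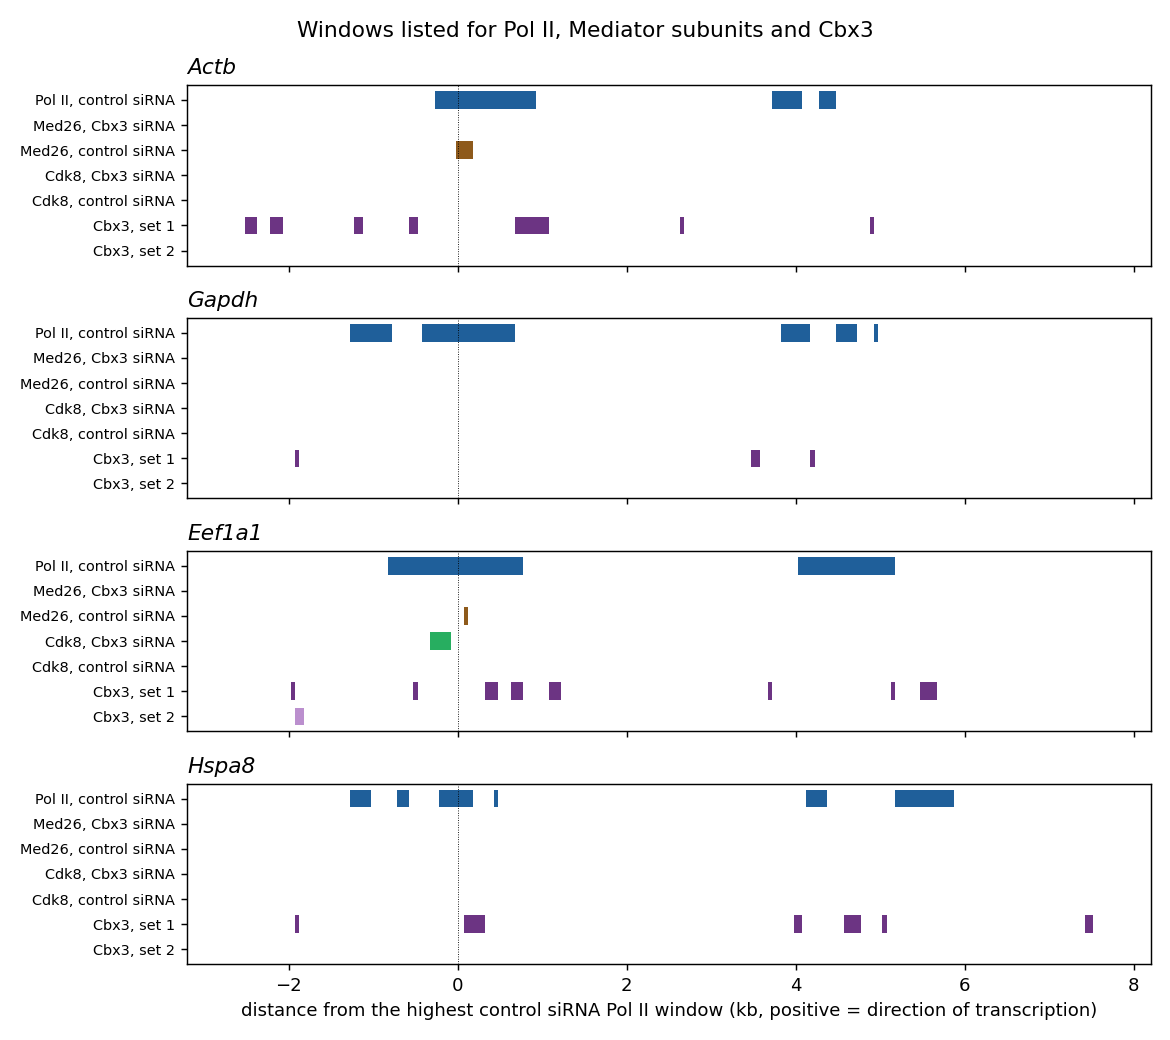
Listed 50 bp windows (bars) of Med26 and Cdk8 in both siRNA arms and of both Cbx3 sets in untreated cells, with control siRNA Pol II on top, against distance in kb from the highest control Pol II window, positive in the direction of transcription (x axis). Med26 appears at Actb and Eef1a1 in control siRNA cells, Cdk8 at Eef1a1 after Cbx3 siRNA, and Cbx3 set 1 at all 4 genes.

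Cbx3 was listed at all 4 genes in set 1 and at Eef1a1 alone in set 2. Set 1 listed 20 windows at Actb, 4 at Gapdh, 17 at Eef1a1 and 15 at Hspa8, which is 10%, 2%, 8.5% and 6.25% of the intervals, against 1.79% of the span of the genome it covers. Set 2 listed 2 windows at Eef1a1, between positions 78331251 and 78331350 and upstream of the Pol II maximum, with signals of 10.3 and 10.9. No window was listed in both sets, so each Cbx3 window at these genes rests on 1 library. Over the whole lists 3.47% of set 1 windows were also in set 2, and 13.1% of set 2 windows were also in set 1.

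The highest Cbx3 set 1 windows lay downstream of the Pol II maxima. The highest window of Actb (62.0) lay 950 bp downstream, that of Eef1a1 (69.6) 650 bp downstream and that of Hspa8 (66.8) 200 bp downstream. These 3 lay above 97.3%, 98.4% and 98.1% of all set 1 windows, on the equivalent of 15.6 to 17.5 reads. The highest window of Gapdh (45.4) lay 4200 bp downstream, above 85.4% of windows. Of the set 1 windows, 14 of 15 at Hspa8, 15 of 17 at Eef1a1, 3 of 4 at Gapdh and 10 of 20 at Actb lay downstream of the Pol II maximum, where 62.9%, 64.0%, 65.5% and 63.5% of the intervals lie in the same order. They were scattered, in 7 runs at Actb, 3 at Gapdh, 8 at Eef1a1 and 6 at Hspa8, and the highest window of Eef1a1 bordered an unlisted one.

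Cbx3 and Pol II were seldom listed in the same window here. Of 57 untreated Pol II windows at the 4 genes, 5 were listed for Cbx3 set 1 (8.77%, against 20.7% of all untreated Pol II windows). Of 171 control siRNA Pol II windows, 15 were (8.77%, against 17.2% of all). Set 2 listed none of either (against 3.6% and 3.27%). By whole regions, 3 of the 4 control Pol II maxima lay in a region that held Cbx3 set 1 (all but Gapdh), against 70.8% of the highly occupied regions, and none in one that held set 2, against 21.0%.

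Loci with the most similar pattern were looked for among 16058 other control siRNA Pol II regions, by the sum over the 9 libraries of differences in the percentile of the highest window, with an unlisted library at 0. Gapdh had the closest match, a region on chromosome 1 from 72283601 to 72284050 with a summed difference of 0.467 percentile points; its Pol II signals were 50.6 after Cbx3 siRNA, 65.8 after control siRNA and 49.6 in untreated cells, with no other library listed. The next was on chromosome 13 from 51941901 to 51942250 (0.578 points). For Actb the closest were on chromosome 3 from 58380401 to 58381100 (3.68 points) and chromosome 1 from 182780301 to 182781450 (3.85 points), both with control Med26, at 14.3 and 14.2, and Cbx3 set 1. For Hspa8 they were on chromosome 13 from 64413801 to 64414200 (1.68 points) and chromosome 6 from 97128851 to 97129450 (2.45 points). Their control Pol II signals were 53.1 and 59.2, against 89.1 at Hspa8. Eef1a1 had no match within 18 points. Its closest region lay on chromosome 7 from 133343601 to 133344100 (18.2 points), followed by chromosome 4 from 40669101 to 40670300 (19.5 points), and both shared control Med26 and Cdk8 after Cbx3 siRNA but had control Pol II signals of 39.6 and 42.5, against 79.9 at Eef1a1.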

How the data were processed

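Chromatin immunoprecipitation with sequencing of 9 libraries was analysed, without the 7 inputs. Each deposited file lists 50 bp windows and the signal that the authors computed for them. Bowtie and mm9 are named in the submitters' processing notes; for the window test, its threshold, the scaling, the use of inputs and reads that match several places, the method is not given in the sources used here. The values were whole multiples of a step to within 0.05 of a step, and the step was equal within each siRNA pair, which does not show equal depth; total reads are unknown from such lists. Windows lying wholly within the 4 intervals were used. Listed windows with gaps of at most 200 bp formed 1 region, ranked by their highest window. Log2 differences were taken in windows listed in both libraries of a pair, and 1.5-fold served as the limit for a call. Ratios carry 95% exact binomial intervals, levels exact Poisson intervals and medians binomial intervals of the order statistics; neighbouring windows share reads, so the last are too narrow.

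The members, intervals and comparisons were chosen with earlier results of these data known. Named are the 4 genes, their neighbours and the 2 likest regions per gene. The limits of 500 and 2500 bp, and the set of highly occupied regions, were chosen after the data were seen. The strand of Gapdh and Eef1a1 came from RefSeq (GRCm38.p6), that of Actb and Hspa8 from general knowledge. No mm9 annotation was used, so lists of marker and other housekeeping genes were not analysed here. The Med26 and Cdk8 medians planned for windows of both arms could not be given, as no window of the 4 genes was listed in both. The steps were tested on simulated lists. Scripts ran under Python 3.11.15 with scipy 1.17.1, matplotlib 3.10.9, pandas 2.3.3 and numpy 2.4.6.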

Additional observations from a re-analysis of the deposited data

How the results depend on the processing

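The median log2 difference of Pol II between Cbx3 siRNA and control siRNA, -0.27, was -0.60 from summed listed signal, -0.32 from the highest windows, and -0.42 with unlisted windows set to the lowest listed value, a value that falls short of the signal at some list edges. Centred on the median of all shared windows it was 0.017, and by gene 0.063 for Actb, 0.127 for Gapdh and 0.013 for Eef1a1. Windows lower by more than 0.32 on the log2 scale numbered 40 and by more than 2-fold 4, against 16 at 1.5-fold. For control siRNA against untreated cells the 0.52 became 1.55 from summed signal and -0.080 when centred, with -0.049 for Actb, -0.124 for Gapdh, -0.169 for Eef1a1 and -0.015 for Hspa8. Without Hspa8, an alternative added after seeing the data, the 2 medians were -0.22 and 0.49, and within 500 bp of the maximum the first was -0.27. Apart from centring, which subtracts a median close to these values, the cause of these changes was not tested. With unlisted windows at the lowest listed value, the median over the 5 windows was -1.06 for Med26 and 0.44 for Cdk8. For each factor the 5 windows were listed in 1 arm alone, so the filling fixed the sign in advance and these medians show no direction. Summed, highest-window and centred values could not be given, with 1 arm unlisted. Cbx3 shared no window between sets; using 1 set alone gave 2 to 56 windows, and 1 set 1 window lay within 200 bp of a set 2 window. The number of genes listed kept its value in the other 8 libraries, but for Cbx3 set 2 it was 0, against 1, at or above the library median and with intervals shortened by 2 kb at each end. No paired analysis was possible because the groups compared had 1 library each, and the 2 Cbx3 libraries had no second group to pair with. Few reads limit Med26, Cdk8 and Cbx3 here.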
